A study of Mus musculus with 2 samples.

Results

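The genes studied here build, trim and load the peptides that MHC class I molecules display, in the immune cells of mouse tumours. The module holds 29 genes, taken by symbol from the 32285 genes in both deposited matrices, and all 29 were found. Counts of unique molecular identifiers (UMIs, single captured mRNA molecules) were summed over the cells of each marker-defined cell type in each library. The tumours came from BALB/c mice that were 5 weeks old at the start and carried subcutaneous CT26 cells, a mouse colorectal carcinoma line. In the group named Arg the diet lacked arginine at matched calories, and in the group named Control it was a normal diet; both diets began 1 week before implantation, and tumours were taken on day 20. The label Arg names no diet itself and was read as the arginine-deficient group from the series' design text. CD45-positive cells, selected on magnetic beads, gave 1 library per diet, and how many mice each one pools is not stated in the sources used here.

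As background, proteasomes cut cytosolic proteins into peptides, the TAP transporter carries these into the endoplasmic reticulum, and chaperones load them onto a class I heavy chain paired with beta-2-microglobulin. Interferons raise many of these genes, exchanging the constitutive catalytic subunits of the proteasome for immunoproteasome subunits. The transactivator Nlrc5 acts on class I promoters. In tumours the pathway matters on both sides of recognition, because CD8 T cells read class I on tumour cells, and dendritic cells and macrophages can show captured tumour antigen on their own class I molecules.

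Of the 29 members, 13 lie in or beside the major histocompatibility complex on chromosome 17, between positions 33915899 and 37274484 of GRCm38, and the others are spread over chromosomes 2, 6, 7, 8, 11, 13 and 14. The promoters of 6 class I genes are shown because the windows of H2-Q6 and H2-Q7 are nearly identical. The 6 also differ in which of the 2 motif cores below they match exactly. Windows on chromosome 17 are reference sequence of the b haplotype, whereas BALB/c mice carry the d haplotype of the major histocompatibility complex. RefSeq promoter windows on GRCm38.p6, from 250 bases before the annotated start to 50 after it, were found for 25 of the 29 members, with none for Tap2, Tapbpl, Nlrc5 and Psmb7. Capitals mark a match to the kappaB motif core GGGATTCCC or to the core GAAANNGAA of the interferon-stimulated response element, each searched on both strands. The windows are H2-K1 at chr17:34000298-34000597 (minus strand), H2-D1 at chr17:35262844-35263143 (plus), H2-Q6 at chr17:35424600-35424899 (plus), H2-Q7 at chr17:35438905-35439204 (plus), B2m at chr2:122147437-122147736 (plus) and H2-T23 at chr17:36032652-36032951 (minus), each written 5′ to 3′ on the strand of its gene.
H2-K1: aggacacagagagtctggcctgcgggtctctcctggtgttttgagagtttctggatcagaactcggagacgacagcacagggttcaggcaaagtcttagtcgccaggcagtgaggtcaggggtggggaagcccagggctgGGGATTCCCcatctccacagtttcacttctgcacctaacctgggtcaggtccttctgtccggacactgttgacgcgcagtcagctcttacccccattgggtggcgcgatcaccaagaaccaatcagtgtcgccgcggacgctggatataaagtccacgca
H2-D1: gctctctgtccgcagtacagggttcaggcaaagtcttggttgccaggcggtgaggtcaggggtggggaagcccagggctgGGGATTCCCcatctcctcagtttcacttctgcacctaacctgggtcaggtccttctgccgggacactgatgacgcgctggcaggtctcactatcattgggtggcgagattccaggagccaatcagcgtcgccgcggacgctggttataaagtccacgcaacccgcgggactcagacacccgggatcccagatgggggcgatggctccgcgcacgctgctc
H2-Q6: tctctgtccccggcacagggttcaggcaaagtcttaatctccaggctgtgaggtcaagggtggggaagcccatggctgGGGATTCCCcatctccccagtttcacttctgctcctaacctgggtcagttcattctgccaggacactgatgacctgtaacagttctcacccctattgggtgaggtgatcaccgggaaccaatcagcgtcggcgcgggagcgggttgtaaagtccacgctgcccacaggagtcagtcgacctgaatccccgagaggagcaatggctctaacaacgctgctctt
H2-Q7: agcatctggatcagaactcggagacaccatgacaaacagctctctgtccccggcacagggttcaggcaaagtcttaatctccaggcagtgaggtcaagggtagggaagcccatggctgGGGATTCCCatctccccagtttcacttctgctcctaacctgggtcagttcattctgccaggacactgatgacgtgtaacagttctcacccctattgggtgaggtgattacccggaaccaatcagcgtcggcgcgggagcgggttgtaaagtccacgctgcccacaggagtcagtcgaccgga
B2m: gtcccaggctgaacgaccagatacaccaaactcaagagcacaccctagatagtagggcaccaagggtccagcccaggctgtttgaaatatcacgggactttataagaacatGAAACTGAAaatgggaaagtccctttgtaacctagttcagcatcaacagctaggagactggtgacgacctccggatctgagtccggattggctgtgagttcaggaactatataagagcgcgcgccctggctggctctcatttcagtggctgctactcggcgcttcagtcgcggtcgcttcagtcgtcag
H2-T23: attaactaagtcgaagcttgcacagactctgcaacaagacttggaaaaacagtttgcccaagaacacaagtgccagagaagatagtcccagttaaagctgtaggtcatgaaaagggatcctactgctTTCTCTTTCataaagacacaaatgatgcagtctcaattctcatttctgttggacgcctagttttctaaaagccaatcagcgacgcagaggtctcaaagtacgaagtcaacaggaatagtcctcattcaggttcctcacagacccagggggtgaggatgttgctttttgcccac

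The kappaB letters were in the windows of H2-K1, H2-D1, H2-Q6 and H2-Q7, 4 of the 25 members with a window, and in 0.353% of 32851 promoter windows of the same length. All motif letters were chosen after the windows had been seen, and these 4 windows resemble each other. The shares therefore describe the windows and are no test of enrichment. The GAAANNGAA letters were in the windows of B2m, H2-T22, H2-T23, Erap1 and Psme1, 5 of 25, and in 8.56% of all windows. CCAAT was in 18 of 25 members' windows and in 37.4% of all windows, and TTCNNNGAA, the gamma-activated site, was in 3 of 25 (H2-M3, Psmb8 and Ubb) and in 8.30%. The H2-Q6 and H2-Q7 windows were 98.1% identical over 260 aligned bases. H2-K1 and H2-Q6 were 88.1% identical over 235 bases, and H2-D1 and H2-Q7 84.3% over 261. No matches to different motifs overlapped in the members' windows. A match is a description of the letters in these windows and not evidence of binding. A window without an exact match may hold near matches, which were not counted.

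After filtering and doublet removal, 12991 Arg and 12800 Control cells remained; the median cell had 8294 UMIs in Arg and 10021 in Control, and 44 barcode sequences occurred in both libraries. Clusters were formed without the members and their pathway genes among the variable genes, and a class named by its markers means cells like that type. Of 16 classes, named by markers or called after a leading gene, 12 held at least 100 cells in both libraries and were compared. Mature dendritic cells, mast cells or basophils, fibroblasts and gamma-delta T cells are given as levels. Levels are in CPM, the UMIs of a gene scaled by the UMI total of its class. The class called Rhox5-led after its leading gene held 537 Arg and 1463 Control cells and had 38.9 CPM (Arg) and 18.99 CPM (Control) of Ptprc, the gene of the CD45 protein used for selection; macrophages had 365 and 335 CPM. The 8 epithelial tumour markers summed to 7.21 CPM in Arg and 17.4 in Control, of which Krt18 made 6.94 and 15.8 CPM and Krt8 0.0559 and 1.41; 4 of the 8 were at 0 in Arg and 1 in Control. Its Tm4sf1, a surface protein of many tumour cells, was at 1132 and 1326 CPM and Rhox5 at 475 and 590.5 CPM. Neither this class nor the Ly6i-led class, also called after its leading gene, met the limits for a cell type name. Each diet is 1 library, so differences below are between single libraries with no replicates to judge them by; all intervals are 95% intervals and cover counting error only.

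H2-K1 and H2-D1 are the classical heavy chains among the members, and such chains present to CD8 T cells. These genes and B2m, the light chain they share, were read in every class. No other classical heavy chain was read. Summed over the 3 genes and averaged over the libraries, macrophages were highest at 10275 CPM and type 1 conventional dendritic cells (cDC1) lowest at 6189 CPM among the compared classes. In lymphocytes, H2-K1 stood at 2747 against 2525 CPM in CD8 T cells (Arg against Control), 2671 against 2294 in regulatory T cells, 2192 against 2187 in CD4 T cells, 2122 against 2348 in gamma-delta T cells and 2125 against 2317 in NK cells. In myeloid cells it stood at 2464 against 2189 CPM in macrophages, 1995 against 1991 in the Ly6i-led class, 1262 against 1199 in monocytes, 1265 against 981 in neutrophils and 1785 against 1805 in mast cells or basophils. Among dendritic cells the order was mature (2364 against 3421 CPM), plasmacytoid (2348 against 2269), cDC2 (1418 against 1677) and cDC1 (1359 against 1799) in Arg, while cDC1 stood above cDC2 in Control. Fibroblasts had 3448 against 2048 CPM and the Rhox5-led class 1476 against 1463 CPM. Monocytes and neutrophils were thus the low end for this chain in both libraries, and CD8 T cells were second highest in both.

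H2-D1 followed a different order. It was at 4772 against 3832 CPM in macrophages, 4042 against 3839 in the Ly6i-led class, 3055 against 2775 in monocytes, 2994 against 2591 in neutrophils and 1838 against 1707 in mast cells or basophils, the lowest class in both libraries. Lymphoid values were 4277 against 3498 CPM in regulatory T cells, 3842 against 3363 in CD8 T cells, 3645 against 3437 in gamma-delta T cells, 3577 against 3182 in CD4 T cells and 3342 against 3292 in NK cells. Dendritic values were 3961 against 4591 CPM in mature, 3341 against 3166 in plasmacytoid, 3164 against 3376 in cDC2 and 2539 against 2789 in cDC1 cells, with 5047 against 3087 in fibroblasts and 3098 against 3041 in the Rhox5-led class. The 2 chains placed monocytes differently: in Control, H2-K1 was 1199 CPM in monocytes and 2525 in CD8 T cells, and H2-D1 was 2775 and 3363 CPM, a narrower gap. BALB/c mice carry the d haplotype and the reference genome the b haplotype of this locus, so reads of these chains can be lost or assigned to a related gene, and the share lost was not measured.

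B2m was at 4153 against 3139.9 CPM in macrophages, 3704 against 3203 in the Ly6i-led class, 3514 against 2236 in neutrophils, 3179 against 2751 in monocytes and 3841 against 4191 in mast cells or basophils. Lymphoid values were 3302 against 2755 CPM for CD8 T cells, 3121 against 2632 in regulatory T cells, 3166 against 2862 in gamma-delta T cells, 2798 against 2597 in CD4 T cells and 2612 against 2518 in NK cells. Mature dendritic cells had 3841 against 4619 CPM, plasmacytoid cells 3022 against 2313, cDC2 2892 against 2566 and cDC1 1878 against 2014, with 3879 against 2457 in fibroblasts and 2167 against 1998 in the Rhox5-led class. The spread between classes was narrow, with the highest at 2.21 times the lowest in Arg and 2.31 times in Control. Only Ubb, a polyubiquitin gene that feeds protein degradation, had a narrower spread in both libraries, at 1.38 and 2.29 times.

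**Figure D1:**
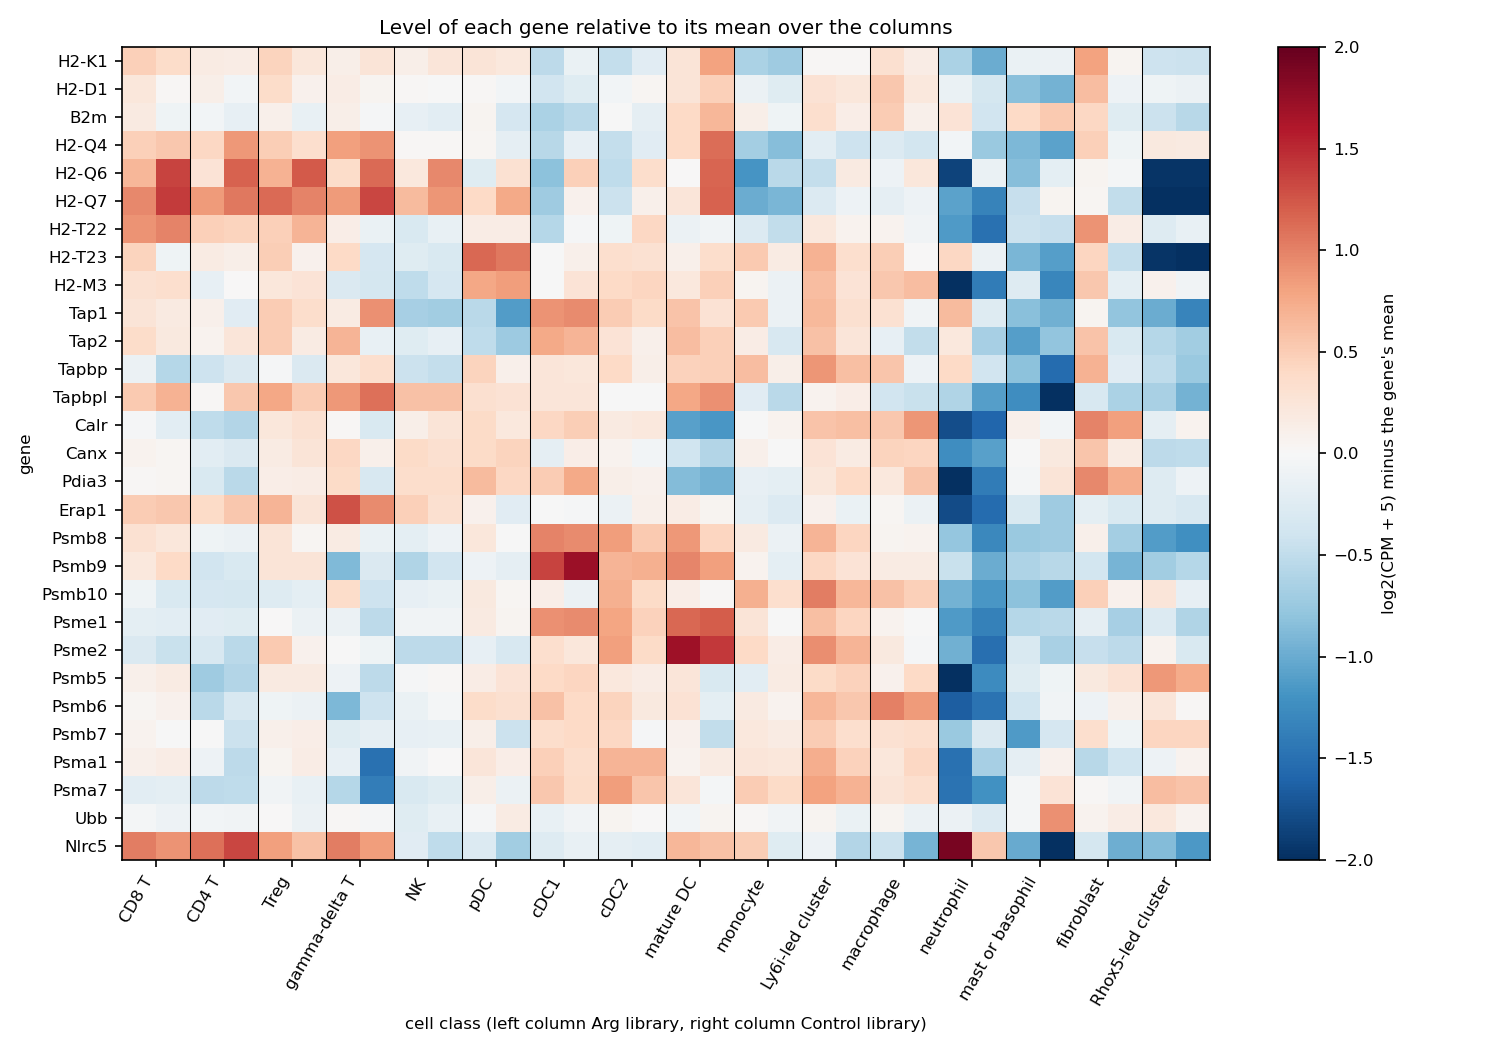
Level of each of the 29 members (rows) in 16 cell classes, with the Arg column left of the Control column in each class. Colour is log2(CPM + 5) minus the mean of the gene, clipped at 2 in both directions; cDC1 columns are warm for Tap1, Psmb8 and Psmb9, and the Rhox5-led columns are cold for H2-Q6, H2-Q7 and H2-T23.

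Levels of the class Ib heavy chains spread more widely over the cell classes than those of the classical chains. H2-Q6 and H2-Q7, the Qa-2 genes, were highest in T cells: H2-Q7 had 226 against 311 CPM in CD8 T cells and 258 against 232 in regulatory T cells. The Rhox5-led class stood apart at 9.79 against 11.6 CPM of H2-Q7 and 6.43 against 6.51 of H2-Q6. H2-T23 encodes Qa-1, the ligand of the NK receptor CD94 with NKG2A, and was highest in plasmacytoid dendritic cells at 489 against 457 CPM and lowest in the Rhox5-led class at 51.8 against 31.3. H2-M3, which presents N-formyl peptides, was also highest in plasmacytoid cells (141 against 149 CPM) and lowest in neutrophils (12.96 against 27.7). H2-T22, a ligand of some gamma-delta T cell receptors, peaked in CD8 T cells (227 against 243 CPM), and H2-Q4 ranged from 68.0 to 236 CPM in Arg classes and from 59.8 to 292 in Control classes. These copies resemble each other: of all 91-base windows in the last 600 transcript bases, 21.4% of those of H2-Q6, 11.9% of H2-Q7, 23.9% of H2-T22 and 17.1% of H2-T23 occurred exactly in another gene. Their separate values are therefore uncertain. Of the reference windows of H2-K1, 1 of 1692 was shared, and of H2-D1 0 of 911. The reference carries the b haplotype, so this search cannot show how reads of the d haplotype of these mice were assigned.

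Tap1 and Tap2, the subunits of the peptide transporter, were highest in cDC1 in both libraries, at 276 against 285 CPM and 207 against 198 CPM. Tapbp encodes tapasin, which bridges the transporter and the heavy chain; it was highest in the Ly6i-led class (366 against 301 CPM). Tapbpl, a tapasin-related peptide editor, stayed at or under 77.8 CPM in every class and was highest in the few gamma-delta T cells (65.7 against 77.8 CPM from 24 and 11 cells). The general chaperones of the loading complex, Calr, Canx and Pdia3, were lowest in neutrophils, where Calr had 92.6 against 107 CPM; macrophages had 478 against 614. Erap1, which trims peptides inside the endoplasmic reticulum, had 56.1 against 57.6 CPM in CD8 T cells, 39.0 against 34.7 in macrophages and 7.41 against 9.77 in neutrophils. Tap1 and Psmb9 overlap at their starts on opposite strands, and whether counting used strand is not stated in those sources.

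The immunoproteasome was measured as the share of UMIs of its catalytic subunits Psmb8, Psmb9 and Psmb10 among those plus the constitutive subunits they replace, Psmb5, Psmb6 and Psmb7. Tags of this 3′ assay are not scaled by transcript length, and the share is of mRNA and not of assembled particles. Among dendritic cells it was 85.0% against 86.7% in cDC1 (Arg against Control), 83.0% against 83.6% in cDC2, 85.1% against 87.2% in mature cells and 76.9% against 75.7% in plasmacytoid cells. Lymphocytes had 80.5% against 80.5% in CD8 T cells, 81.3% against 81.3% in CD4 T cells, 80.4% against 79.4% in regulatory T cells, 75.7% against 76.6% in NK cells and 81.8% against 80.8% in gamma-delta T cells. Immunoproteasome transcripts were thus the majority in each of these classes. In myeloid cells the share was 73.4% against 73.0% in macrophages, 79.6% against 77.8% in the Ly6i-led class, 80.4% against 76.0% in monocytes, 87.7% against 78.0% in neutrophils and 76.1% against 71.6% in mast cells or basophils. Fibroblasts had 76.9% against 67.8% and the Rhox5-led class 60.1% against 61.2%, the lowest of the 16 in both libraries. By pair, macrophages had 82.4% against 79.2% for Psmb8, 67.3% against 69.5% for Psmb9 and 68.3% against 66.2% for Psmb10; Psmb5 shares 27.7% of its end windows with Gm3375. Psmb9 itself was highest in cDC1 at 1218 against 1566 CPM, as was Psmb8 at 1097 against 1055 CPM. Psme1 and Psme2, the subunits of the PA28 activator that opens the proteasome core, were highest in mature dendritic cells (967 against 797 CPM for Psme2). The structural core subunits Psma1 and Psma7 ranged from 46.3 to 234 CPM and from 129.6 to 665 CPM over the Arg classes.

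**Figure D2:**
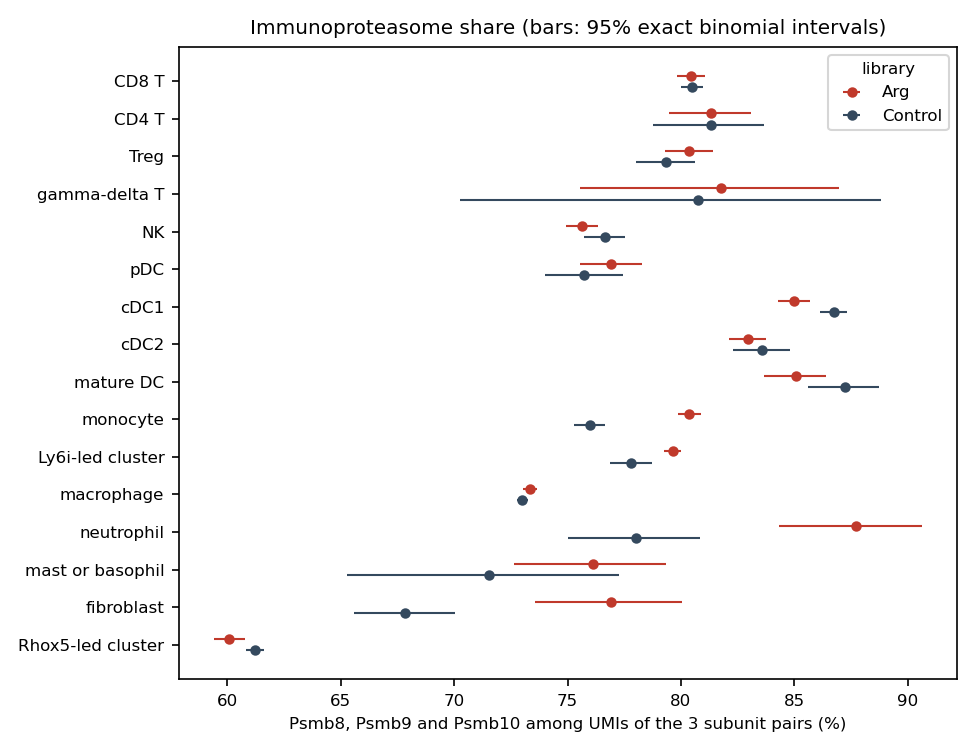
Share of immunoproteasome UMIs (Psmb8, Psmb9 and Psmb10, percent of all 6 catalytic subunits) in each class, with Arg and Control as separate points and exact 95% binomial counting intervals. The Rhox5-led class is lowest at 60.1% in Arg and 61.2% in Control. The widest gap among compared classes is in neutrophils, at 87.7% in Arg and 78.0% in Control. With a stricter cell filter the neutrophil shares are 79.9% and 78.2%.

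Nlrc5, the transactivator of class I genes, ordered the classes differently from the classical chains. In lymphocytes it was at 188 against 221 CPM in CD4 T cells, 177 against 162 in CD8 T cells, 177 against 156 in gamma-delta T cells, 153 against 129 in regulatory T cells and 71.6 against 58.1 in NK cells. In myeloid cells it was at 329.6 against 125 CPM in neutrophils, 121 against 71.0 in monocytes, 78.7 against 54.9 in the Ly6i-led class, 61.2 against 41.9 in macrophages and 39.7 against 8.54 in mast cells or basophils. That last Control value came from 54 cells and lay under the 12.8 CPM that 3 UMIs would make there. Mature dendritic cells had 137 against 130.1 CPM, cDC1 69.8 against 76.1, cDC2 74.4 against 72.6 and plasmacytoid cells 69.4 against 50.01, with 65.3 against 40.5 in fibroblasts and 44.4 against 35.5 in the Rhox5-led class. Macrophages, with the highest classical class I sum of the compared classes, were thus near the low end for Nlrc5. Across the 38 clusters of at least 20 cells, Spearman's rho within a library was 0.93 in Arg and 0.93 in Control for Psmb8 with Psmb9, 0.93 and 0.93 for H2-Q6 with H2-Q7, 0.86 and 0.89 for Tap1 with Psmb9, and −0.59 and −0.63 for Calr with Nlrc5. These are descriptions over clusters that share a library, a depth range and, for H2-Q6 with H2-Q7, transcript sequence.

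The libraries were then compared within each class, to describe class I processing under the diet without arginine beside the normal diet. A member counts as past 1.5-fold where the log2 ratio of Arg over Control, taken after adding 5 CPM to both, exceeds that fold and either library has at least 10 CPM. The median log2 ratio of the members was 0.17 in monocytes (all genes 0.04), 0.18 in the Ly6i-led class (0.04), 0.13 in plasmacytoid dendritic cells (0.02) and 0.13 in regulatory T cells (0.02). It was 0.10 in macrophages (all genes −0.0042), 0.11 in the Rhox5-led class (−0.07) and 0.25 in neutrophils (−0.13). The other medians lay nearer 0, at 0.04 in CD8 T cells (all genes −0.01), 0.01 in CD4 T cells (−0.02), 0.03 in cDC2 (0.01), −0.04 in NK cells (0.02) and −0.07 in cDC1 (−0.01). Members with higher values in Arg numbered 25 of 29 in monocytes, 23 in the Ly6i-led class, 23 in plasmacytoid cells, 20 in regulatory T cells and 19 in macrophages, against 11 in NK cells and 9 in cDC1. No median reached 1.5-fold, and the members did not move as a block. The median in regulatory T cells was 0.0231 at 1 common mix of their clusters and 0.0316 with a stricter cell filter, and that in neutrophils ran from 0.19 to 0.53 over 12 other settings. Psme2 was higher in Arg in 12 of 12 classes, and B2m, H2-T23, Tap1, Tapbp and Psme1 in 11 of 12; with TMM scaling the counts were 11, 11, 11, 11, 11 and 10, and with totals without mitochondrial and ribosomal protein genes 11, 11, 11, 11, 11 and 9. Calr, H2-M3 and Psmb5 were higher in Arg in 3 of 12 classes and H2-Q7 in 2. These counts include ratios near 1, with the smallest log2 ratio of Psme2 at 0.00517. The classes share the same libraries, and the share of all genes with such counts was not taken.

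**Figure D3:**
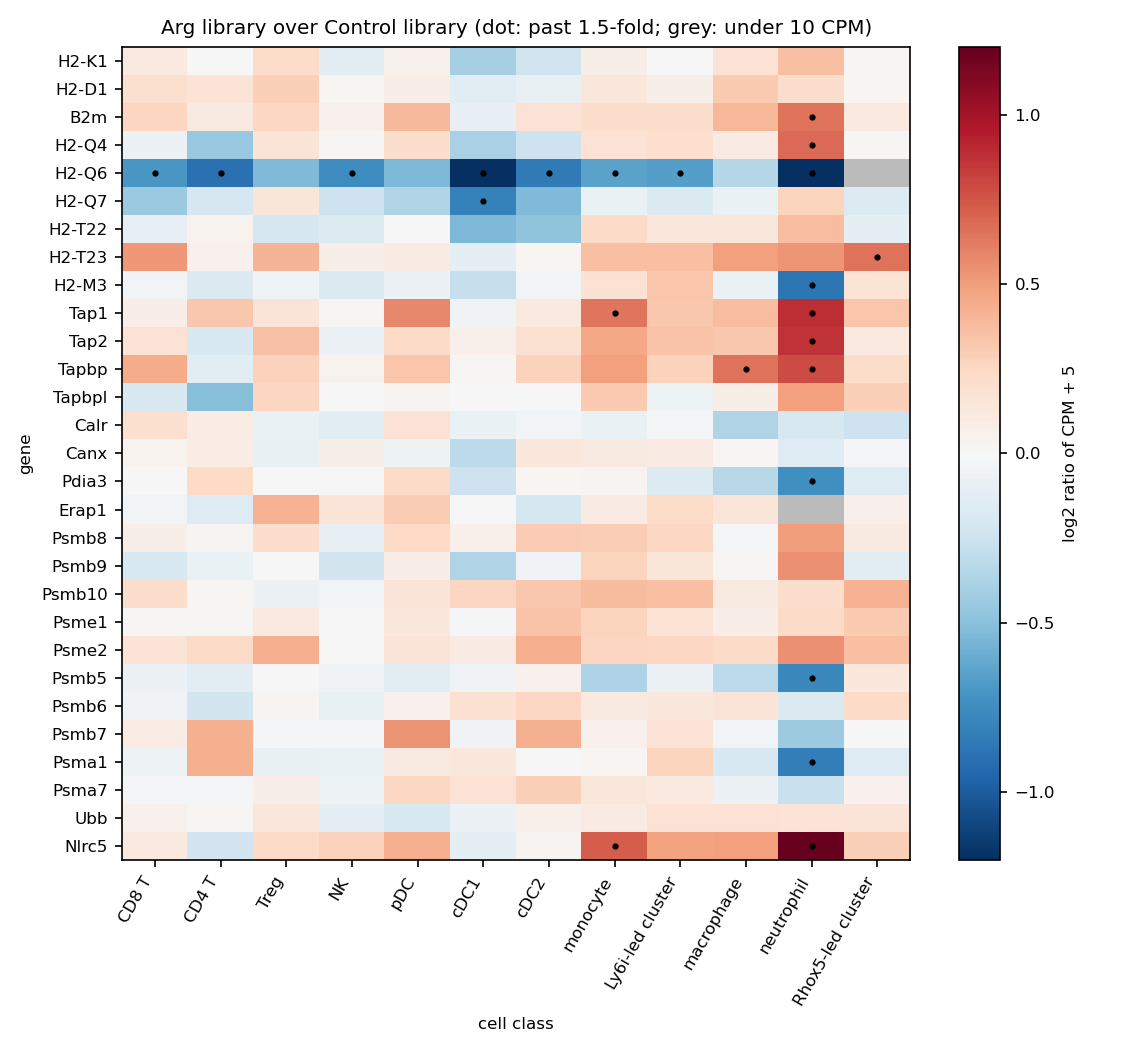
Log2 ratio of Arg over Control (5 CPM added to each) for each member in the 12 compared classes, with colour clipped at 1.2 in both directions, a dot where the ratio passes 1.5-fold, and grey where both libraries are under 10 CPM. The H2-Q6 row is blue in all 11 classes where it was measured, with 8 dots, and the neutrophil column holds 11 dots, more than any other.

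Macrophages were compared to ask about antigen presentation by these cells, which the study's title names. The 3 classical class I members were all higher in Arg, with H2-D1 at 4772 against 3832 CPM, B2m at 4153 against 3139.9 CPM (1.32-fold, 95% interval 1.31 to 1.33) and H2-K1 at 2464 against 2189 CPM. Tapbp, at 289.7 against 183 CPM (1.59-fold, 95% interval 1.55 to 1.63), was the 1 member of 29 past 1.5-fold, where 5.58% of all measured genes were past it upward; none was past it downward, against 4.61% of all genes. Both shares of members lay under the background. Nlrc5 (61.2 against 41.9 CPM), H2-T23 (308 against 218) and Tap1 (180.4 against 138) were higher in Arg without passing 1.5-fold. Calr, the calreticulin chaperone, had the lowest ratio at 478 against 614 CPM (log2 ratio -0.36), and the summed immunoproteasome subunits were at 1291 against 1281 CPM. Markers of other types moved too: over the 7 neutrophil markers, the summed level in this class was 247 CPM in Arg and 96.1 in Control, and over the 6 plasma cell markers 138 and 8.66; their part in the result was not tested.

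The macrophage class held 5 clusters in very different shares. Cluster C0, led by Mmp13, Mmp12 and Arg1, made up 59.9% of macrophages in Arg and 22.1% in Control. Cluster C1, led by Ch25h and Cx3cr1, made up 14.7% and 42.9%, cluster C7, led by Lyve1, 11.9% and 19.4%, the cycling cluster C11 4.49% and 14.2%, and cluster C17, led by C3 and Nos2, 8.98% and 1.42%. Tap1 was lower in C0 than in C1 within each library, at 141 against 77.8 CPM in C0 (Arg against Control) and 226 against 147 in C1.

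Within C0, 5 of 29 members were past 1.5-fold upward (background 5.83%) and none downward (1.74%). They were Nlrc5 at 50.5 against 25.6 CPM (1.98-fold, 1.76 to 2.23), Tap1 (1.82-fold, 1.70 to 1.95), Tapbp at 242 against 134 CPM, H2-T23 at 261 against 154 CPM and Tap2 at 86.6 against 53.9 CPM. In C1, 3 members passed upward (background 2.5%) and none downward (1.57%): Tapbp at 328 against 197 CPM, Nlrc5 at 66.3 against 41.7 and Tap1. In C7, 4 passed upward (background 10.3%) and none downward (4.02%), with Nlrc5 at 99.9 against 56.2 CPM, H2-T23 at 419.7 against 249, Tap1 at 191 against 117 and Tapbp at 357 against 223. Nlrc5, Tap1 and Tapbp thus passed in each of these 3 clusters; the members' share was 17.2% in C0, 10.3% in C1 and 13.8% in C7. Cycling cells (C11) and C17 each had only Tapbp upward (backgrounds 3.4% and 7.2%) and H2-Q6 downward (1.8% and 5.03%). In C17, which held 352 Arg and 71 Control cells, Tap1 was at 271 against 253 CPM (1.07-fold, 0.920 to 1.249) and Nlrc5 at 90.2 against 79.3 CPM (1.14-fold, 0.869 to 1.51), and both intervals of the fold include 1. With both libraries weighted to 1 common mix of clusters, 4 members passed upward (background 3.23%) and none downward (1.09%): Tapbp at 299 against 178 CPM, H2-T23 at 322 against 212, Tap1 at 189 against 123 and Nlrc5 at 65.2 against 39.7. The classical chains at that mix were at 4600 against 4072 CPM for H2-D1, 4036 against 3260 for B2m and 2503 against 2205 for H2-K1. For H2-D1 and B2m these gaps were narrower than in all macrophages pooled. The members' median at that mix was 0.18 and the immunoproteasome share 74.5% against 71.5%. By cluster that share was 69.4% against 64.1% in C0, 76.7% against 74.6% in C1, 78.9% against 71.3% in C7, 76.1% against 75.3% in C11 and 78.2% against 83.4% in C17, higher in Arg in all but C17.

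**Figure D4:**
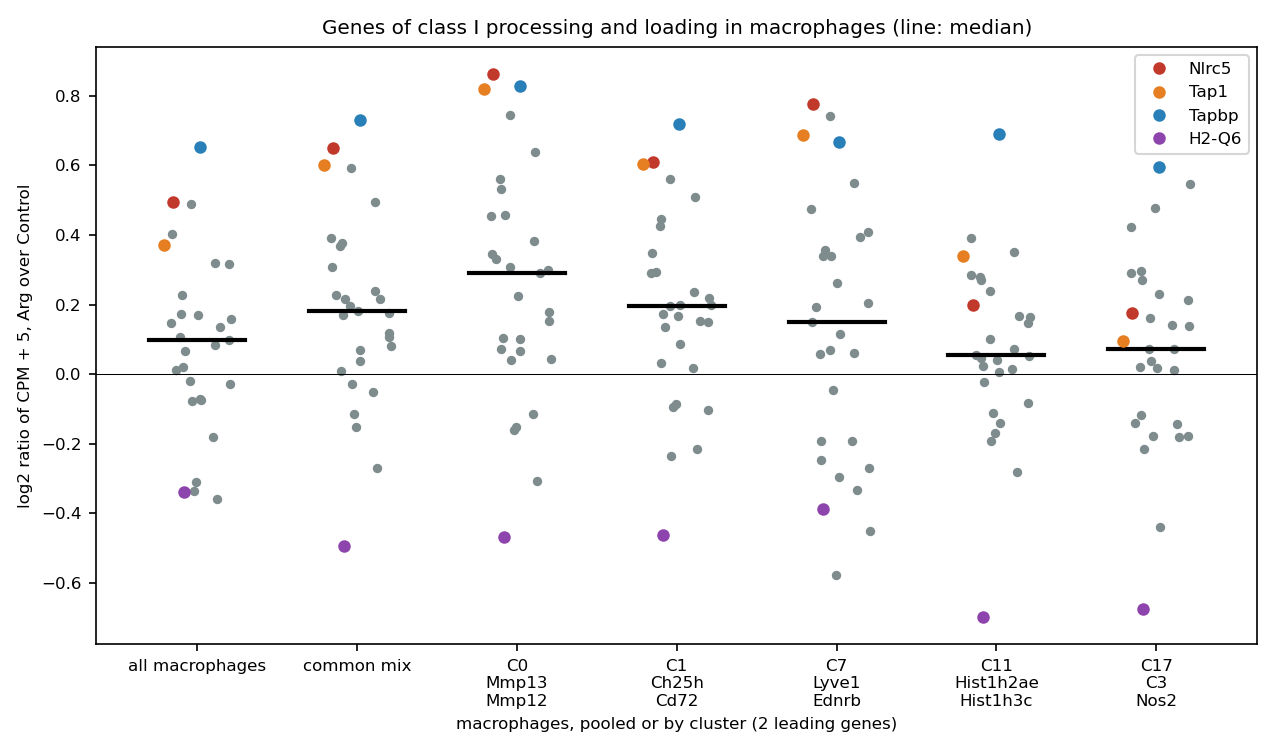
Log2 ratio of Arg over Control (5 CPM added) of the 29 members in all macrophages, at 1 common mix of clusters, and in the clusters C0, C1, C7, C11 and C17, 1 point per member with Nlrc5, Tap1, Tapbp and H2-Q6 coloured. Tapbp lies above 1.5-fold in every column, Nlrc5 and Tap1 lie above it at the common mix and in C0, C1 and C7, and H2-Q6 lies below 0 throughout.

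In monocytes, Nlrc5 was at 121 against 71.0 CPM (1.70-fold, 95% interval 1.57 to 1.86) and Tap1 at 212 against 134 CPM (1.58-fold, 95% interval 1.48 to 1.68), 2 of 29 members past 1.5-fold upward where 2.38% of all genes were. H2-Q6, at 14.6 against 25.6 CPM, was the 1 member downward (background 1.44%). At 1 common mix of the monocyte clusters, Nlrc5 was the 1 member upward (119 against 74.6 CPM; background 2.04%) and H2-Q6 the 1 downward (1.34%), while Tap1 was at 211 against 139 CPM. Over 12 other settings Nlrc5 passed in 9 and Tap1 in 8, with log2 ratios down to 0.39 and 0.48. By cluster, in C5, led by Hp and Adgre4, Nlrc5 was at 160.0 against 98.5 CPM, and in C8, led by Thbs1 and Vcan, at 62.9 against 41.2 CPM. Only Nlrc5 passed upward in C5 (background 2.11%) and H2-Q6 downward (1.9%), and Tap1 and Tap2 passed upward in C8 (3.18%), with none downward (1.93%). The immunoproteasome share in monocytes was 80.4% (79.9 to 80.9) against 76.0% (75.3 to 76.7). In the Ly6i-led class, which held 1800 Arg and 361 Control cells, no member passed upward (background 1.96%) and H2-Q6 alone downward (2.38%); Nlrc5 was at 78.7 against 54.9 CPM and Tapbp at 366 against 301.

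CD8 T cells are also named in the title. No member passed 1.5-fold upward (background 6.13%), and H2-Q6, at 65.4 against 109 CPM (0.597-fold, 95% interval 0.544 to 0.655), was the 1 downward (3.08%). H2-T23 had the highest ratio at 296 against 204 CPM (log2 ratio 0.52), followed by Tapbp at 180.4 against 131 CPM. The CD8 T clusters also differed in share: L1, led by Pdcd1 and Tox, made up 6.39% of the class in Arg and 60.2% in Control, and L3, led by Serpine2 and Gzme, 39.4% and 6.19%. H2-T23 was at 278 against 192 CPM in L1 and 308 against 298 in L3, so the gap between the libraries was narrower in L3 than in the pooled class. At 1 common mix no member passed in either direction (backgrounds 1.76% and 1.29%), with H2-Q6 at 73.3 against 106 CPM. H2-T23 at that mix was at 288 against 239 CPM (log2 ratio 0.26). The immunoproteasome share was 80.5% (79.8 to 81.1) against 80.5% (80.0 to 81.0), with overlapping intervals. Macrophage markers summed to 699 CPM in the Arg and 346 CPM in the Control CD8 T class, and their part was not tested; without cluster L13, which held 124 Arg and 2 Control cells, the median of the members was −0.01.

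NK cells had no member past 1.5-fold upward (background 0.972%) and H2-Q6 downward (46.8 against 82.3 CPM; 0.863%), and likewise at 1 common mix (0.752% and 0.922%). CD4 T cells had none upward (6.79%) and H2-Q6 downward (49.1 against 95.7 CPM; 7.92%). Regulatory T cells had none in either direction (3.57% and 8.75%), and their largest ratio was Psme2 at 427 against 313 CPM. H2-Q6 there, at 67.4 against 99.4 CPM, passed downward under 5 of 12 other settings, with a log2 ratio of −0.83 with doublets kept, and H2-T23 passed upward as a mean over cells. The 9 macrophage markers summed to 602 CPM in the Arg and 2093 CPM in the Control regulatory T cell class, and their part in these values was not tested.

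In cDC1, the cells specialised in presenting captured antigen on class I, H2-K1 was at 1359 against 1799 CPM, H2-D1 at 2539 against 2789, B2m at 1878 against 2014 and Psmb9 at 1218 against 1566, all lower in Arg without passing 1.5-fold. H2-Q6 (20.4 against 57.3 CPM, 0.356-fold, 95% interval 0.269 to 0.467) and H2-Q7 (67.8 against 122 CPM, 0.554-fold, 95% interval 0.472 to 0.649) passed downward, 2 of 29 against 3.84% of all genes, and none passed upward (3.38%). The transporter genes lay close together, with Tap1 at 276 against 285 CPM and Tap2 at 207 against 198 CPM. The cDC1 clusters differed in share, with D4 making up 11.6% of the class in Arg and 34.2% in Control. At 1 common mix of these clusters, the median log2 ratio was −0.0365 for the members and −0.0376 for all genes. There 13 of 29 members were higher in Arg, and H2-T22 passed downward beside H2-Q6 and H2-Q7. With doublets kept, H2-K1 passed downward too. The share of all genes past the fold was not taken at these settings. In cDC2, H2-Q6 alone passed downward (26.5 against 51.8 CPM; background 5.06%) and none upward (3.33%). Plasmacytoid dendritic cells had no member past the fold in either direction (4.18% and 4.04%), with Tap1 highest at 99.2 against 64.7 CPM. In mature dendritic cells, with 80 Arg and 72 Control cells and no comparison, H2-K1 was at 2364 against 3421 CPM and H2-D1 at 3961 against 4591 CPM.

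Neutrophils had more members past the fold than any other compared class, in 226 Arg and 438 Control cells whose median depth was 2202 UMIs in Arg and 2166.5 in Control. Of 28 measured members, 6 passed upward (21.4%, background 11.3%) and 5 downward (17.9%, background 20.5%). Upward were Nlrc5 at 329.6 against 125 CPM from 178 and 154 UMIs (2.63-fold, 95% interval 2.11 to 3.28), Tap1 at 228 against 121 CPM, Tap2 at 141 against 74.9, Tapbp at 259 against 148, H2-Q4 at 126 against 76.5 and B2m at 3514 against 2236. Downward were H2-Q6 from 4 Arg and 44 Control UMIs, H2-M3 from 7 and 34, Psma1 from 25 and 106, Psmb5 from 13 and 55 and Pdia3 from 39 and 152. H2-M3, Psma1, Psmb5 and Pdia3 turned to higher in Arg under a stricter cell filter, with log2 ratios of 0.0737, 0.254, 0.0701 and 0.364, and Tap1 was under the fold at 0.497. Over 12 other settings the upward count ran from 6 to 13, highest with that filter, and the downward count from 1 to 5. In simulated counts of this depth, 10.0% of unchanged genes passed the fold in either direction and 80% of changed genes were recovered. In macrophages and CD8 T cells, 0% of unchanged genes passed, and 98.5% and 96% of changed genes were recovered. The summed level of the 7 neutrophil markers was 40161 CPM in Arg and 56849 in Control, and the part of that difference in these ratios was not tested.

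In the Rhox5-led class, H2-T23 at 51.8 against 31.3 CPM (1.66-fold, 95% interval 1.53 to 1.80) was the 1 of 28 measured members past 1.5-fold upward (background 1.78%), and none passed downward (1.86%). It passed in 9 of 11 other settings, with a log2 ratio of 0.49 after adding 20 CPM. Among those settings, the common mix of this 1-cluster class and the low-value filter could not change its ratio. H2-K1 (1476 against 1463 CPM), H2-D1 (3098 against 3041) and B2m (2167 against 1998) lay close together in the libraries. Psme2 was at 310.4 against 239.9 CPM and Nlrc5 at 44.4 against 35.5 CPM. This class had the lowest H2-Q6, H2-Q7 and H2-T23 of all 16 in both libraries while its H2-K1 was above that of monocytes in both.

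H2-Q6 was the member past 1.5-fold in the most compared classes. All classes come from the same 2 libraries and are not independent. How many of all genes were lower in as many classes was not counted. H2-Q6 was lower in Arg in all 11 compared classes in which it was measured and past 1.5-fold in 8 of them. TMM scaling and totals without mitochondrial and ribosomal protein genes gave these counts too. Fibroblasts, which were not compared, had 41.3 against 38.6 CPM. It was also lower in each of the 5 macrophage, 2 monocyte, 4 NK and 4 CD8 T clusters with at least 20 cells in both libraries. Its neighbour H2-Q7 was lower in Arg in 10 of 12 classes but past the fold in cDC1 alone. Because the 2 genes share transcript sequence, their sum was taken as well: it was 292 against 421 CPM in CD8 T cells, 227 against 297 in NK cells, 88.2 against 179.7 in cDC1, 137 against 154 in macrophages and 326 against 332 in regulatory T cells. Of that sum, H2-Q6 made up 22.4% in Arg and 26.0% in Control in CD8 T cells, 26.6% and 30.8% in macrophages and 20.7% and 30.0% in regulatory T cells. How the counting divided reads between the copies was not tested.

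**Figure D5:**
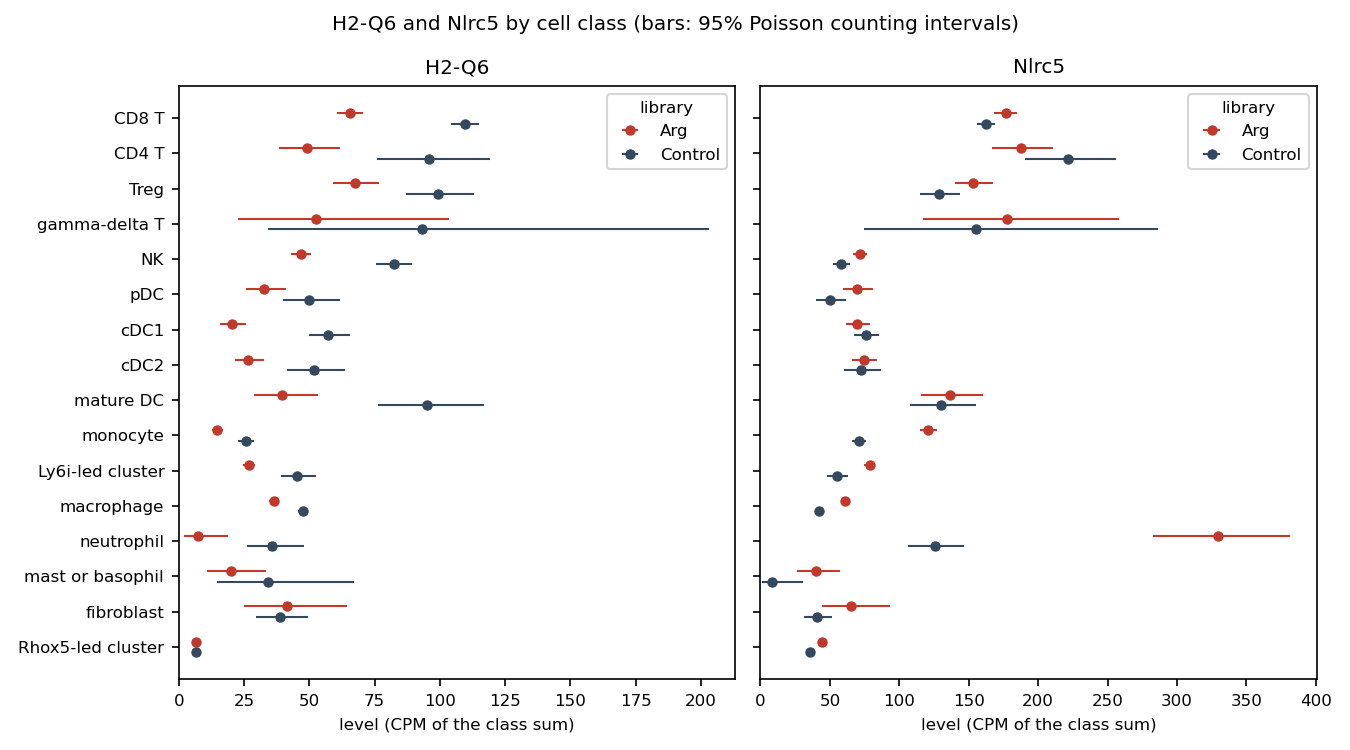
CPM of H2-Q6 and of Nlrc5 in each class, Arg and Control as separate points with exact 95% Poisson counting intervals. H2-Q6 is lower in Arg in every measured compared class, and Nlrc5 is higher in Arg in 10 of 12, with the widest gap in neutrophils (329.6 CPM in Arg, 125.4 CPM in Control).

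Shares of cells carrying a UMI were taken at equal depth, after thinning each cell to 2000 UMIs and leaving out shallower ones. Nlrc5 was found in 11.5% of Arg and 7.97% of Control macrophages, 19.9% and 12.4% of monocytes, 30.7% and 27.1% of CD8 T cells, and 41.9% and 19.2% of the 136 and 260 neutrophils deep enough. Unthinned, the macrophage shares were 40.0% and 35.1% and the CD8 T shares 69.5% and 70.9%. Tap1 was found in 28.7% and 23.2% of thinned macrophages and in 34.0% and 21.6% of thinned monocytes. No class is known to lack these genes, so free RNA could not be set against an empty class; in the Rhox5-led class the Nlrc5 shares were 8.66% and 5.67%. Per cell, H2-K1, H2-D1 and B2m together made up a median of 1.08% of UMIs in Arg and 0.897% in Control macrophages, with quartiles of 0.813% to 1.39% and 0.702% to 1.13%. In cDC1 the medians were 0.526% and 0.662%, in CD8 T cells 1.003% and 0.902%, and the quartile ranges of the libraries overlapped in each of these classes.

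Other genes of the pathway were read from a list of 83, of which 78 were in the files: further core and regulatory proteasome subunits, peptidases, quality-control chaperones, class I-like chains, ubiquitin genes and regulators. In macrophages, 3 of 68 measured passed 1.5-fold upward and none downward, and 19 were higher in Arg, with a median log2 ratio of −0.09; the upward share lay under the 5.58% of all genes, whose median was −0.0042. They were Irf1, an interferon-induced transcription factor of class I genes, at 294 against 166 CPM, the cytosolic aminopeptidase Npepps at 101 against 63.4 CPM and Cd1d1, which presents lipids, at 11.2 against 4.86 CPM. The 19S regulatory particle, which feeds ubiquitinated proteins into the core, had 1 of 18 subunits higher in Arg there, with none past the fold. Both transporter members, Tap1 and Tap2, were higher in Arg there. In monocytes, Irf1 (569 against 317 CPM) was past the fold upward, where 2.38% of all genes were. None of the 66 measured passed downward, against 1.44% of all genes. In CD8 T cells, Irf1 was at 269.7 against 179 CPM, under the fold. H2-M2, a class I-like gene, was the 1 of 67 past the fold upward in CD8 T cells, with 107 UMIs in Arg and 0 in Control, at least 55.3-fold higher against a floor of 3 counts; 6.13% of all genes passed upward there. Of those UMIs, 105 came from 6 cells of cluster L13. Irf1 was past the fold neither in plasmacytoid cells (382 against 401 CPM) nor in the Rhox5-led class (184 against 170.2 CPM), and in neutrophils it was at 1570.1 against 594 CPM.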

How the data were processed

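Tumour CD45-positive cells were profiled with the 10x Chromium 3′ v3 assay, per the labels' protocols. The deposited values are raw counts of UMIs per gene and barcode, not normalized by the authors; Cell Ranger 7.0.1 made them per the file headers, while version 2.2.2 and GRCm38 stand in the submitters' processing notes. The settings for intronic reads and strand are not given in the sources used here.

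The matrices held 155927693 UMIs in 14540 barcodes (Arg) and 191505551 in 14343 (Control). Barcodes were kept with 200 or more genes, 500 or more UMIs and a mitochondrial share up to 10%, and Scrublet doublets were removed (884, 6.37%, in Arg and 687, 5.09%, in Control). Counts were scaled to 10000 per cell, and Leiden clusters (resolution 1, 2000 variable genes without the members and pathway genes, 30 principal components, 20 neighbours, seed 1) were named from marker sets. The limits for naming were chosen with the clusters in view: a mean log2 fold of at least 0.5, at least 3 markers each in at least 20% of cells, and at least 20 cells. A CD8-positive cluster (L9) and the Ly6i-led and Rhox5-led clusters failed them.

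Counts were summed per class and divided by the class total. No test was run, because each diet has 1 library; calls rest on a 1.5-fold limit after adding 5 CPM, at 10 CPM or more in either library. Intervals are exact Poisson, conditional binomial or Clopper-Pearson at 95%; they treat UMIs as independent and cover counting error only. The members and lists were chosen with earlier results of these data known. Named by rule were members past the fold in a compared class (at most 5 each way), H2-K1, H2-D1, B2m and Nlrc5 in every class, the catalytic pairs (given as shares), pathway genes past the fold in macrophages or CD8 T cells, and Irf1; 1 other gene is not reported here. Other members were named for the highest or lowest level or ratio, after their values were seen.

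Gene positions were from GENCODE on GRCm38, where 99.8% of the 32285 identifiers matched, and promoters from RefSeq. The motif letters were chosen after the windows had been seen, and longer forms of the kappaB and interferon-response motifs had been searched first. The alternatives changed the pseudocount (1 or 20 CPM), scaling, weighting of cells, cell filter, doublets, resolution (0.5 or 2), cluster mix, low-value filter, thinning and fold limit (1.25). The calculations were checked on simulated counts, where recovery was poorer and false calls were more frequent in neutrophils than in macrophages and CD8 T cells. TMM factors came from edgeR 4.0.16 under R 4.3.3; all else used scanpy 1.11.5, leidenalg 0.10.2, igraph 0.11.9, pandas 2.3.3, scipy 1.17.1, numpy 2.4.6 and matplotlib 3.10.9 under Python 3.11.15.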

Additional observations from a re-analysis of the deposited data

How the results depend on the processing

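Over 14 alternatives, the median log2 ratio of the members in macrophages stayed above 0. It was 0.10 as reported, 0.0347 with totals that leave out mitochondrial and ribosomal protein genes, 0.16 with the stricter cell filter, 0.17 at resolution 2, 0.17 with the Ly6i-led cluster added and 0.18 at 1 common mix of clusters. In CD8 T cells it ran from −0.01 to 0.04 over 14 alternatives, so its direction is not fixed. The difference in immunoproteasome share in macrophages (0.34 points) was 1.05 with the stricter filter, 1.06 at resolution 2, 2.97 at 1 common mix, 2.37 with the Ly6i-led cluster and 0.84 without the cycling cluster C11. That in CD8 T cells (−0.02 points) was −0.81 at 1 common mix. The log2 ratio of the highest to the lowest class in summed classical chains (0.73) was 0.87 with the stricter filter, 0.86 with doublets kept and 0.86 at resolution 2, with macrophages highest and cDC1 lowest in each; with totals that leave out mitochondrial and ribosomal protein genes, neutrophils were lowest (7127 CPM).

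Among member values past 1.5-fold, 5 turned round, all in neutrophils: H2-M3 to 0.0119 as a mean over cells and to 0.0737 with the stricter filter, and with that filter Pdia3 to 0.364, Psmb5 to 0.0701 and Psma1 to 0.254. The cause was not tested. Values under the fold changed sign in other classes as well: the members higher in Arg numbered 5 to 12 of 29 in NK cells, 11 to 17 in CD4 T cells and 17 to 23 in regulatory T cells over 12 alternatives each. Tapbp in macrophages stayed past 1.5-fold under all 14 alternatives and Nlrc5 in monocytes under 9 of 12. H2-Q6 stayed past it under 13 of 14 in CD8 T cells, 6 of 12 in monocytes and all 12 in cDC1. Some counted alternatives could not change the ratio of a member. These are the low-value filter in any class and the common mix in a class of 1 cluster. The settings with the Ly6i-led cluster, without C11, with L9 and without L13 were chosen after seeing the data. No paired analysis was possible because each group holds 1 library and no result comes from a test. Depth limits H2-Q6 and H2-M3 in neutrophils, where Arg cells gave 4 and 7 UMIs.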
